A study of Mus musculus with 14 samples.

Results

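Receptors for the constant (Fc) part of antibodies let phagocytes sense and take up targets that immunoglobulin G (IgG) has coated. The activating receptors signal through the common gamma chain, an adaptor with an immunoreceptor tyrosine-based activation motif that Src-family kinases phosphorylate and Syk then binds. The inhibitory receptor carries the opposite kind of motif in its own tail and recruits the lipid phosphatase SHIP-1. In the heart these genes are mostly read in resident and recruited macrophages. The 5 genes described here are Fcgr1, Fcgr3, Fcer1g, Fcgr2b and Fcrls, out of 13219 gene symbols measured in the AAV experiment. They were chosen by symbol, and the set was selected on the values themselves, because Fcgr1 and Fcrls differed in opposite directions in the 2 comparisons of the study. Their differences between groups are therefore given as a description, with no test.

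Bulk RNA sequencing was performed on whole hearts of male C57BL/6J mice. All mice were fed a high-fat diet (HFD, 60% of energy as fat) for 12 weeks from an age of 7 to 9 weeks. AAV-CTRP9 hearts (n = 4) came from wild-type mice injected with 1e12 genomes of an AAV9 vector that expresses CTRP9 under control of the cardiomyocyte promoter of troponin T. AAV-Luc hearts (n = 3) came from wild-type mice given the same dose of a vector with Renilla luciferase behind that promoter. The sample titles of these 3 hearts read CTRP9, while their description and treatment labels give luciferase, and the hearts were grouped by the latter. KO hearts (n = 4) came from mice homozygous for a CTRP9 knock-out, which is not limited to a cell type, and WT hearts (n = 3) from wild-type mice, neither with a vector. Every group received HFD, so no comparison with chow is made here. The scaled library totals implied by the deposited CPM were 23626917 to 30262264 in the AAV experiment, where the recovered reads summed to 23498500 to 29369196. Transcripts of 1 gene can share reads, so this sum can count a read more than once. Library totals worked back for the KO experiment were 14978278 to 18959587. C1qtnf9, which encodes CTRP9, had 1263 to 2567 reads in AAV-CTRP9 hearts, vector transcripts included, and 422 to 794 reads in AAV-Luc hearts. The most was in CTRP9_609, with 109 CPM against 44.3 to 67.0 CPM in the other AAV-CTRP9 hearts. That heart was also the highest of its group for Fcgr1, Fcgr3, Fcer1g and Fcrls, but not for Fcgr2b. Whether these genes vary with C1qtnf9 within a group was not tested. In the KO experiment C1qtnf9 had 0 to 2 reads in KO hearts and 481 to 498 reads in WT hearts. One AAV-Luc library (Luc_614) stood apart in base composition, with a Spearman correlation across genes of 0.52 between GC content and the level relative to the mean of the 7 libraries, against -0.27 to -0.11 in the other 6 libraries. Each member is given without it below.

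All 5 genes are annotated on the minus strand of GRCm38 (GENCODE M21). Fcgr2b (chr1:170958617-170976547), Fcgr3 (chr1:171051174-171064935) and Fcer1g (chr1:171229572-171234365) lie within 275.749 kb on chromosome 1. Fcrls (chr3:87250758-87263738) and Fcgr1 (chr3:96282909-96293969) lie on chromosome 3. An antisense gene overlaps Fcgr2b on the other strand, and the miRNA gene Mir6546 lies within Fcgr3. The library preparation was strand-specific, but antisense reads cannot be told apart from those of Fcgr2b where counting ignored strand. Fcgr2b and Fcgr3 resemble each other enough to share reads of 50 bases, the read length of the study. Of the 1298 windows of 50 bases in the Fcgr3 transcript, 166 (12.8%) also occur in Fcgr2b, which is 4.75% of the 3495 windows of the Fcgr2b transcript. A further part of Fcgr2b is repeated elsewhere, so that 12.5% of its windows occur in some other gene. No window of Fcgr1, Fcer1g or Fcrls occurs in a transcript of another gene. The longest run common to Fcgr2b and Fcgr3 has 129 bases. It is coding sequence that crosses from exon 3 into exon 4 in both genes (chr1:170967980-170968081 and chr1:170966674-170966700 in Fcgr2b, chr1:171057691-171057792 and chr1:171054167-171054193 in Fcgr3). It is shown because no read of 50 bases from within it can be assigned to one of these 2 receptors, one inhibitory and one activating.
Run shared by Fcgr2b and Fcgr3: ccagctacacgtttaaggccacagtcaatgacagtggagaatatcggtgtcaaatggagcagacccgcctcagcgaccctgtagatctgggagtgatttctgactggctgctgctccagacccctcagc

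The promoters of Fcgr1 and Fcrls are shown because these were the members listed in both experiments. Both stretches run from 250 bases before to 50 bases after the RefSeq start (GRCm38.p6, minus strand, chr3:96293920-96294219 for Fcgr1 and chr3:87263475-87263774 for Fcrls). Capitals mark matches on either strand to GAGGAA, the core of the motif bound by the myeloid factor PU.1.
Fcgr1 promoter: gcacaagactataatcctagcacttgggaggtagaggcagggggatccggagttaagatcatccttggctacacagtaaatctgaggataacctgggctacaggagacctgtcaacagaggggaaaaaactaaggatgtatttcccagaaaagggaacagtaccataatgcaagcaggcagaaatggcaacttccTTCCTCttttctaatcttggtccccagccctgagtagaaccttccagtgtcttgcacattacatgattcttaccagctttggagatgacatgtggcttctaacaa
Fcrls promoter: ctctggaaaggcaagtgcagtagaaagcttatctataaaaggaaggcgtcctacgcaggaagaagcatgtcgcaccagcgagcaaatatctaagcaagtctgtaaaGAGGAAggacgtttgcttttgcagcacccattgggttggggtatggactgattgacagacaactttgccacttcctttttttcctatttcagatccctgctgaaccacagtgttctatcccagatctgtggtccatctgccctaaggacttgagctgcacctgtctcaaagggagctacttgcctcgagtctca
The Fcgr1 promoter held a PU.1 core 55 bases before the start. The Fcrls promoter held a PU.1 core 144 bases before the start. The PU.1 core was found in the promoters of 3 of the 5 members (Fcgr1, Fcgr3 and Fcrls), and in 28.3% of 32851 mouse promoters of the same length. These matches are descriptions of the letters and not of binding.

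The levels of the 5 genes spanned a wide range within the same hearts. Levels between genes were compared as CPM, read counts scaled to the library total, per kilobase of transcript. Fcer1g had the highest level, 10.9 ± 1.83 CPM per kilobase in AAV-CTRP9 hearts (SD, n = 4) and 13.9 ± 0.945 in AAV-Luc hearts (SD, n = 3). Fcgr3 came next, with 3.14 ± 0.492 CPM per kilobase in AAV-CTRP9 hearts and 5.04 ± 0.387 in AAV-Luc hearts. Fcgr1 had the lowest level of the 5, 0.348 ± 0.0553 CPM per kilobase in AAV-CTRP9 hearts and 0.563 ± 0.0973 in AAV-Luc hearts. Fcgr2b and Fcrls lay between Fcgr3 and Fcgr1. Fcgr2b had 1.28 ± 0.103 CPM per kilobase in AAV-CTRP9 hearts and 1.81 ± 0.211 in AAV-Luc hearts, and Fcrls had 1.12 ± 0.171 and 1.86 ± 0.378 in the same groups. These were the only neighbours in the order whose hearts overlapped, in both groups, so Fcgr2b and Fcrls were not separated by more than their spread. Per kilobase, the activating receptor Fcgr3 exceeded the inhibitory receptor Fcgr2b within each heart. The ratio of their levels per kilobase was 2.15 to 2.83 in AAV-CTRP9 hearts and 2.45 to 3.04 in AAV-Luc hearts, which overlapped. This order rests on the transcript lengths used, 1347 bases for Fcgr3 and 3544 bases for Fcgr2b. Without length scaling, the means in AAV-CTRP9 hearts were 4.23 CPM for Fcgr3 and 4.53 CPM for Fcgr2b. In AAV-Luc hearts they were 6.79 CPM for Fcgr3 and 6.43 CPM for Fcgr2b.

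**Figure D1:**
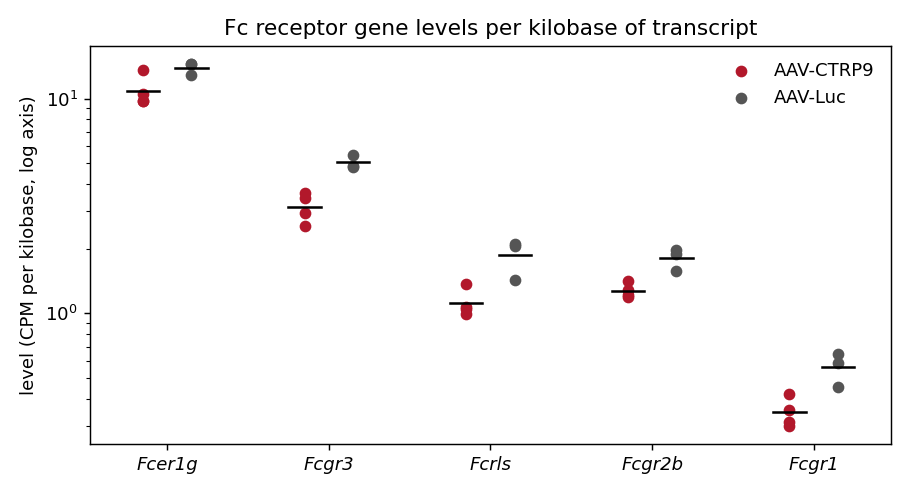
Levels of the 5 Fc receptor genes in CPM per kilobase of transcript on a log axis, with 1 point per heart, AAV-CTRP9 hearts on the left of each pair and AAV-Luc hearts on the right, and a line at each group mean. Fcer1g is highest at 10.9 and 13.9, Fcgr1 lowest at 0.348 and 0.563, and the points of Fcrls and Fcgr2b overlap.

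The comparison of AAV-CTRP9 with AAV-Luc hearts addressed how added CTRP9 from cardiomyocytes changes the heart during HFD. Each of the 5 genes had a lower mean in AAV-CTRP9 hearts, and for 4 of the 5 the highest AAV-CTRP9 heart lay below the lowest AAV-Luc heart. Of all 13219 symbols, 4.54% were lower in this way. Since the members were selected on this comparison, nothing is read from their count. The median log2 fold change of the 5 was -0.69, against 0.03 for all symbols. Fold changes are on the scale of log2 CPM with a prior count of 1, which understates those of genes with few reads. In whole hearts, fewer cells of a type and less RNA per cell cannot be told apart.

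Fcgr1 encodes the high-affinity IgG receptor CD64, which mature macrophages carry and interferon-gamma raises. It had 1.09, 0.921, 0.808 and 0.779 CPM in AAV-CTRP9 hearts, against 1.52, 1.18 and 1.67 CPM in AAV-Luc hearts. The groups did not overlap, but the lowest AAV-Luc heart (Luc_615) lay close to the highest AAV-CTRP9 heart (CTRP9_609). These levels rest on few reads, 21 to 25 per AAV-CTRP9 heart and 32 to 45 per AAV-Luc heart. The counting interval of the 25 reads of CTRP9_609 was 16.2 to 36.9 reads and that of the 32 reads of Luc_615 was 21.9 to 45.2 (exact Poisson, 95%, for counting error only), so these hearts were not separable by counting. The means were 0.900 ± 0.143 CPM in AAV-CTRP9 hearts (SD, n = 4) and 1.46 ± 0.252 CPM in AAV-Luc hearts (SD, n = 3), which gave a log2 fold change of -0.69 with a standard error of 0.25, and of -0.65 without Luc_614.

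Fcgr3 encodes the low-affinity activating receptor for IgG complexes. It had 4.90, 4.64, 3.44 and 3.96 CPM in AAV-CTRP9 hearts, against 6.45, 7.39 and 6.53 CPM in AAV-Luc hearts. Every AAV-CTRP9 heart was lower, with a gap between the groups. The means were 4.23 ± 0.663 CPM in AAV-CTRP9 hearts and 6.79 ± 0.521 CPM in AAV-Luc hearts (SD, n = 4 and n = 3), from 97 to 130 and 171 to 206 reads per heart. The log2 fold change was -0.69 (standard error 0.14), and -0.73 without Luc_614. The second listed transcript of Fcgr3 differed by -0.69 as well. It carried nearly the same number of reads, so the transcripts of 1 gene are not separate measurements.

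Fcer1g encodes the common gamma chain, which both activating receptors need for surface expression and signalling. It had 9.14, 6.55, 7.09 and 6.54 CPM in AAV-CTRP9 hearts, against 8.63, 9.71 and 9.75 CPM in AAV-Luc hearts. Here the groups overlapped, because CTRP9_609 lay above Luc_614, and the other 3 AAV-CTRP9 hearts lay below every AAV-Luc heart. The means were 7.33 ± 1.23 CPM in AAV-CTRP9 hearts and 9.36 ± 0.637 CPM in AAV-Luc hearts (SD, n = 4 and n = 3). The log2 fold change of -0.37 (standard error 0.13) was the smallest in size of the 5. It was -0.42 without Luc_614 and -0.48 without CTRP9_609.

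Fcgr2b encodes the inhibitory IgG receptor, which is also found on endothelium of some organs and on B cells. It had 4.56, 5.03, 4.21 and 4.31 CPM in AAV-CTRP9 hearts, against 5.59, 6.67 and 7.02 CPM in AAV-Luc hearts. The groups did not overlap, and the nearest hearts were CTRP9_610 and Luc_614. The means were 4.53 ± 0.363 CPM in AAV-CTRP9 hearts and 6.43 ± 0.748 CPM in AAV-Luc hearts (SD, n = 4 and n = 3), from 107 to 141 and 168 to 186 reads per heart. The log2 fold change was -0.50 (standard error 0.13), and -0.60 without Luc_614. Its 4 listed transcripts differed by -0.64 to -0.46.

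Fcrls encodes a rodent Fc receptor-like protein with a scavenger receptor domain, known as a marker gene of microglia, and it has not been assigned a role in binding IgG. It had 3.13, 2.44, 2.39 and 2.26 CPM in AAV-CTRP9 hearts, against 4.76, 3.25 and 4.71 CPM in AAV-Luc hearts. Luc_615 was the low AAV-Luc heart and CTRP9_609 the high AAV-CTRP9 heart, as for Fcgr1, and the groups did not overlap. The means were 2.55 ± 0.388 CPM in AAV-CTRP9 hearts and 4.24 ± 0.858 CPM in AAV-Luc hearts (SD, n = 4 and n = 3). The log2 fold change was -0.72 (standard error 0.18), -0.63 without Luc_614 and -0.90 without Luc_615.

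**Figure D2:**
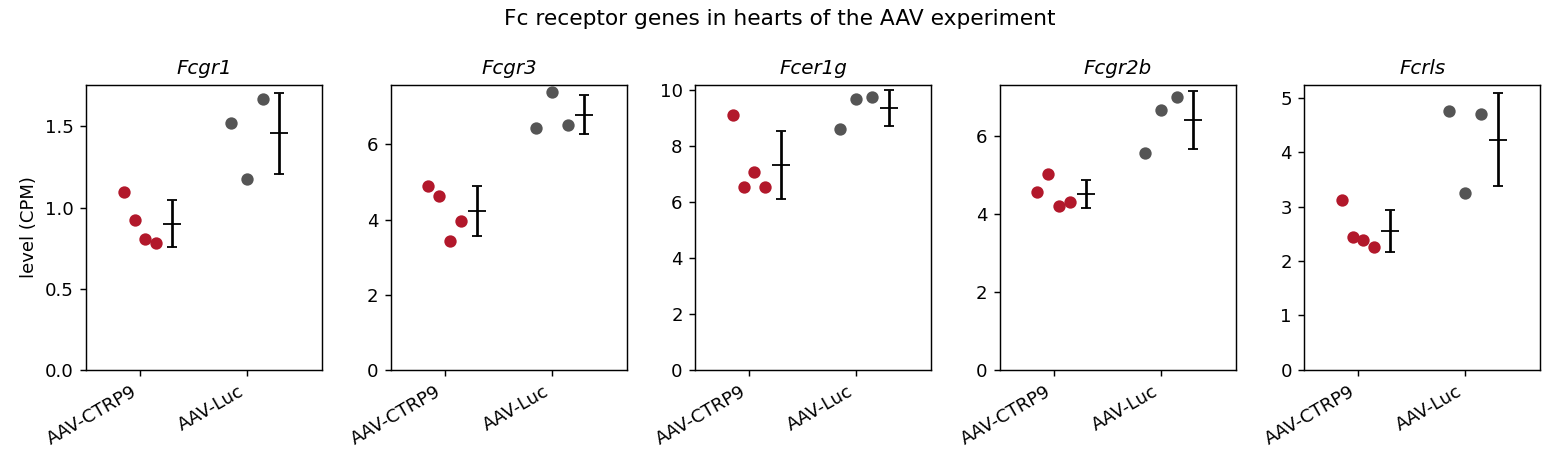
Levels in CPM (y axes, each from 0) of Fcgr1, Fcgr3, Fcer1g, Fcgr2b and Fcrls in 4 AAV-CTRP9 and 3 AAV-Luc hearts, with 1 point per heart and bars for the mean and SD. The groups are apart for 4 genes and overlap for Fcer1g, where 1 AAV-CTRP9 heart is at 9.14 CPM and the lowest AAV-Luc heart at 8.63 CPM.

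The measured profiles of Fcgr1 and Fcrls over the 7 AAV hearts were nearly the same, within a wide counting error for Fcgr1. Likeness was measured as the root mean square (RMS) difference between mean-centred log2 CPM profiles, a description over 7 hearts that includes the difference between the groups. Of 13124 other genes with a mean of at least 1 CPM, Fcrls was the nearest to Fcgr1 and Fcgr1 the nearest to Fcrls, with an RMS difference of 0.0699. The ratio of Fcgr1 to Fcrls per kilobase was 0.297 to 0.331 in AAV-CTRP9 hearts and 0.281 to 0.318 in AAV-Luc hearts. Fcgr1 had only 21 to 45 reads per heart, and the 25 reads of CTRP9_609 had a counting interval of 16.2 to 36.9 reads. Counting error of this size is wider than an RMS difference of 0.0699. The pair was also the nearest among 13124 genes, and both members were selected on this comparison. How much of the closeness is chance was not tested. The next nearest genes to Fcgr1 and Fcrls were Tubb4a (a tubulin) and Nfam1 (an immune receptor with an activation motif). Col1a1 was the fifth for both. The fourth was Cd248, a stromal cell gene, for Fcgr1 and Trim46 for Fcrls. Fcgr3, Fcgr2b and Fcer1g were farther from Fcgr1, at ranks 69, 117 and 158. The nearest genes to Fcgr3 were Tlr2 (a receptor for bacterial lipoproteins), Myc and C3ar1 (the receptor for complement fragment C3a), with RMS differences of 0.130, 0.138 and 0.138. Fcgr2b was nearest to Tmem100 (0.0810), Dab2 (0.0887) and Gm10244 (0.0971). Fcer1g was nearest to Pak4 (0.0644), Dpp7 (0.0721) and Galnt16 (0.0790). The closest other member was Fcgr2b, at rank 521.

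Between Fcgr2b and Fcer1g on chromosome 1, 6 other genes were measured in the AAV experiment. Their log2 fold changes were -0.41 (Cfap126) to 0.10 (Sdhc), and none had an unadjusted p under 0.05 in limma. The closest to Fcer1g, Apoa2, had -0.21. Fcgr4, the further activating IgG receptor of this cluster, was not analysed here.

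The comparison of KO with WT hearts addressed the loss of CTRP9 during HFD. The deposited table holds transcripts of 1230 symbols, all of which the authors had kept for an unadjusted p under 0.05. Fcgr1 and Fcrls are listed in it, and both had a higher mean in KO hearts. Of all listed symbols, 38.9% were higher in KO. Fcgr2b, Fcgr3 and Fcer1g were not analysed here in KO and WT hearts. The values are normalized counts, reads divided by a size factor per library, and since listing already required a difference between these hearts they are a description.

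Fcgr1 had 14.4, 25.4, 20.99 and 31.4 normalized counts in KO hearts, against 5.85, 11.1 and 13.4 in WT hearts. The groups did not overlap, but the highest WT heart and the lowest KO heart lay close together. Of all listed symbols, 28.0% had every KO heart above every WT heart, and nothing is read from the single member that did. The counts behind these values were 14 to 34 reads per KO heart and 5 to 13 reads per WT heart, and the 5 reads of the lowest WT heart had a counting interval of 1.62 to 11.7 reads. The means were 23.0 ± 7.18 normalized counts in KO hearts (SD, n = 4) and 10.1 ± 3.89 in WT hearts (SD, n = 3), which gave a log2 fold change of 1.16 with a standard error of 0.37 in edgeR, and of 0.91 without the lowest WT heart (WT_A).

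Fcrls had 39.0, 76.1, 69.1 and 50.8 normalized counts in KO hearts, against 42.1, 20.4 and 33.1 in WT hearts. Here the groups overlapped, because the lowest KO heart (KO_A) lay below the highest WT heart (WT_A). The means were 58.7 ± 17.0 in KO hearts (SD, n = 4) and 31.9 ± 10.9 in WT hearts (SD, n = 3), which gave a log2 fold change of 0.90 with a standard error of 0.29. Leaving out WT_A gave 1.15, and leaving out WT_B, the lowest WT heart for Fcrls, gave 0.65. Heart by heart, Fcgr1 and Fcrls followed each other less closely than in the AAV experiment. The heart with the most Fcgr1 (KO_D) had less Fcrls than 2 other KO hearts, and the ratio of Fcgr1 to Fcrls per kilobase was 0.233 to 0.474 in KO hearts and 0.107 to 0.419 in WT hearts. These ratios rest on few reads. The lowest was that of WT_A, with 5 Fcgr1 reads, and the highest WT ratio that of WT_B, with 12 Fcgr1 and 22 Fcrls reads. Whether the experiments differ beyond counting error was not tested.

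**Figure D3:**
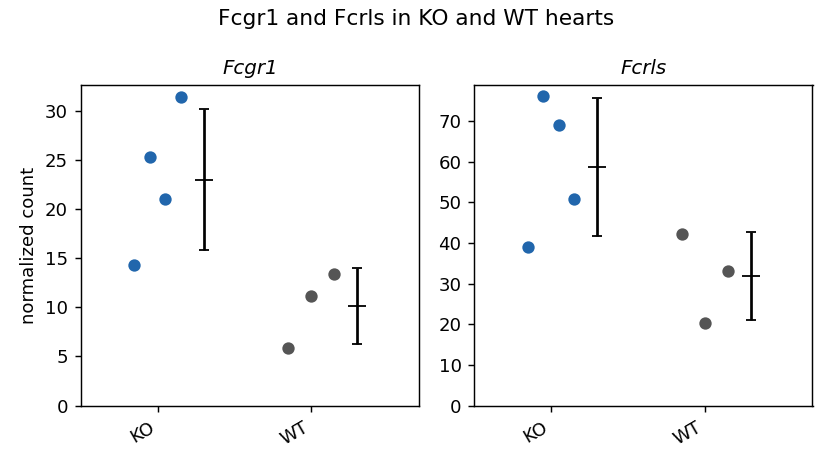
Normalized counts (y axes, each from 0) of Fcgr1 and Fcrls in 4 KO and 3 WT hearts, with 1 point per heart and bars for the mean and SD. Fcgr1 runs from 14.4 to 31.4 in KO and from 5.85 to 13.4 in WT hearts, and for Fcrls the lowest KO heart at 39.0 lies below the highest WT heart at 42.1.

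The direction of each difference was the same in every alternative run. Leaving out each AAV heart in turn gave -0.84 to -0.59 for Fcgr1, -0.77 to -0.60 for Fcgr3, -0.48 to -0.32 for Fcer1g, -0.60 to -0.43 for Fcgr2b and -0.90 to -0.63 for Fcrls. Leaving out each KO or WT heart gave 0.91 to 1.39 for Fcgr1 and 0.65 to 1.15 for Fcrls. Since the members were selected on these directions, this says nothing beyond how far single hearts moved the values.

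**Figure D4:**
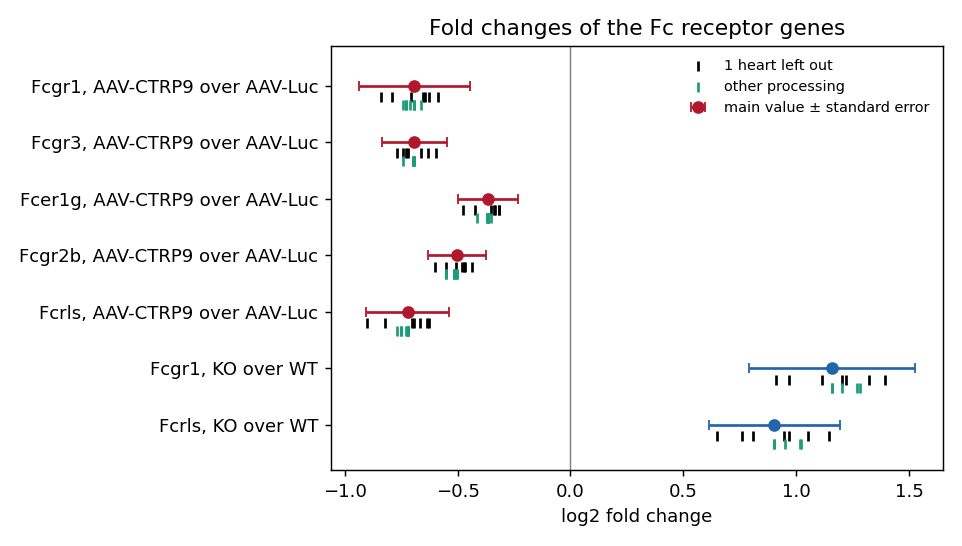
Log2 fold changes of the Fc receptor genes (x axis), AAV-CTRP9 over AAV-Luc and KO over WT, with the main value and its standard error, the values with 1 heart left out and those under other processing. All AAV values lie below 0, between -0.90 and -0.32 for hearts left out, and both KO values lie above 0.

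Across the 6 pathway lists, 55 of 87 genes were measured in the AAV experiment and none passed an adjusted p of 0.05 in limma, as 0.0151% of all symbols did. The edgeR quasi-likelihood test also called 0 and DESeq2 called 2 (Ighd and Pirb). At an unadjusted p under 0.05, 8 of the 55 were lower and 4 higher, where 4.36% of all symbols were lower and 4.30% higher. Of the 55, 38 had a negative log2 fold change, and the median was -0.10, against 0.03 for all symbols.

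The kinases and adaptors downstream of the activating receptors had a median of -0.12 over 24 measured of 27 genes, with 3 lower and 2 higher at an unadjusted p under 0.05. Syk, the kinase that binds the gamma chain, had 18.9 ± 1.64 CPM in AAV-CTRP9 hearts and 23.6 ± 1.56 CPM in AAV-Luc hearts (SD, n = 4 and n = 3), with a log2 fold change of -0.32 (limma adjusted p = 0.417). Plcg2, a phospholipase activated by Syk, had 6.92 ± 0.755 and 4.99 ± 0.151 CPM in the same groups, a log2 fold change of 0.46 (limma adjusted p = 0.364). These 2 had the smallest p of the list and were picked after their values were seen. Tec, a kinase of the same pathway, was the only one listed for KO and WT, at 0.63 (log2 fold change for KO over WT, standard error 0.17).

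The inhibitory side had a median of -0.10 over 15 of 16 genes, with 2 lower at an unadjusted p under 0.05 and none higher. Inpp5d, which encodes SHIP-1, had a log2 fold change of -0.29 (limma adjusted p = 0.574). Pirb, an inhibitory receptor of myeloid cells, had 2.14 ± 0.606 CPM in AAV-CTRP9 hearts and 4.13 ± 0.497 CPM in AAV-Luc hearts (SD, n = 4 and n = 3), with a log2 fold change of -0.98 (limma adjusted p = 0.255). Both were picked after their values were seen. Close copies of Pirb exist in the genome, so its reads are uncertain. Ptpn11, the phosphatase SHP-2, was listed for KO and WT at 0.22 (standard error 0.08).

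Of the receptors and adaptors that pair with or resemble the gamma chain, 4 of 12 were measured. Tyrobp, the related adaptor DAP12, had a log2 fold change of -0.55 (limma adjusted p = 0.529), and Cd247, the zeta chain, 0.44 (limma adjusted p = 0.358). Of the 5 subunits of the phagocyte oxidase, which activated Fc receptors switch on, 2 were lower at an unadjusted p under 0.05, with a median of -0.46. They were Ncf1 at -0.60 (limma adjusted p = 0.486) and Ncf4 at -0.63 (limma adjusted p = 0.559). Among the ligands, 4 of 13 immunoglobulin chain genes were measured, and each had a positive log2 fold change. Ighd, the heavy chain of IgD, had 2.57 ± 0.562 CPM in AAV-CTRP9 hearts and 1.03 ± 0.224 CPM in AAV-Luc hearts (SD, n = 4 and n = 3), a log2 fold change of 1.32 (limma adjusted p = 0.134), and IgD is not a ligand of the members. Igkc, the kappa light chain, had 0.58 (limma adjusted p = 0.615). Ighg2c, the 1 IgG heavy chain measured, had 0.12 and was picked after its values were seen. The other Fc receptors measured were 3 of 14. Fcgrt, the neonatal receptor that recycles IgG, had 0.03 and Fcrla 0.13.

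All 20 measured macrophage and monocyte genes of 22 had a negative log2 fold change for AAV-CTRP9 over AAV-Luc, with a median of -0.44, and 12 of them were lower at an unadjusted p under 0.05, where 4.36% of all symbols were. Lyz2, the lysozyme of myeloid cells, was the 1 that passed the adjusted threshold in limma. It had 28.4 ± 1.33 CPM in AAV-CTRP9 hearts and 45.0 ± 0.909 CPM in AAV-Luc hearts (SD, n = 4 and n = 3). Its log2 fold change was -0.67 (limma adjusted p = 0.0354). Its call was lost in limma without the trend, with summed transcripts and with any heart but Luc_614 left out. Over all fixed lists together, DESeq2 called 10 genes where limma called 1. The summed level of the list was 349 to 381 CPM in AAV-CTRP9 hearts and 421 to 465 CPM in AAV-Luc hearts. Cx3cr1, at 194 CPM on average in AAV-CTRP9 hearts and 199 CPM in AAV-Luc hearts, held much of this sum and had a log2 fold change of -0.03. In the KO experiment its mean was only 48.7 normalized counts in KO hearts and 21.4 in WT hearts. Those libraries had totals of 14978278 to 18959587 reads, so its level in the AAV experiment was far higher. Why the levels differ was not tested, and the sum that includes Cx3cr1 is uncertain as a macrophage level. Without Cx3cr1 the sum was 171 to 179 CPM in AAV-CTRP9 hearts and 245 to 250 CPM in AAV-Luc hearts. The 5 members together came to 17.9 to 22.8 CPM in AAV-CTRP9 hearts and 26.9 to 29.7 CPM in AAV-Luc hearts. Relative to the sum of the whole macrophage list this was 4.71% to 6.07% in AAV-CTRP9 hearts and 5.97% to 7.05% in AAV-Luc hearts. Relative to the sum without Cx3cr1, a gene left out after its values were seen, it was 10.1% to 12.8% in AAV-CTRP9 hearts and 10.8% to 12.1% in AAV-Luc hearts. The ranges overlapped in both cases, by 1 AAV-CTRP9 heart (CTRP9_609) with the whole list. The part of macrophage number in the difference of the members was not tested.

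No gene of the other cell type lists passed the adjusted threshold in limma or edgeR, and DESeq2 called 3 (Laptm5, Col1a1 and Col1a2). The 8 general leukocyte genes had a median of -0.17 and a summed level of 35.1 to 44.4 CPM in AAV-CTRP9 hearts and 46.4 to 52.4 CPM in AAV-Luc hearts. Laptm5 had -0.58 and Rac2 -0.64, the 2 of this list that were lower at an unadjusted p under 0.05. Rac2 is also in the list of activating signalling. Of the 8 leukocyte genes, 6 had a negative value. Ptprc, which encodes the leukocyte marker CD45, had 0.25 (standard error 0.45) and Ikzf1 0.23 (standard error 0.39). Ptprc and Ikzf1 were picked after their values were seen. The 5 fibroblast genes had a median of -0.21 and summed to 305 to 337 CPM in AAV-CTRP9 hearts and 355 to 398 CPM in AAV-Luc hearts. The 7 cardiomyocyte genes all had positive values, with a median of 0.20, and summed to 19288 to 20059 CPM in AAV-CTRP9 hearts and 15532 to 18704 CPM in AAV-Luc hearts. The 7 endothelial genes had a median of -0.03, with Cldn5 at -0.59 and Tek at 0.22. Csf3r, a receptor of neutrophils and the 1 gene measured of 7 in that list, had 1.83 ± 0.202 CPM in AAV-CTRP9 hearts and 3.05 ± 0.932 CPM in AAV-Luc hearts (SD, n = 4 and n = 3), a log2 fold change of -0.69 (limma adjusted p = 0.471). Kit, the 1 measured of 5 mast cell genes, had -0.11. Of the dendritic cell list, 2 of 6 genes were measured, with Clec9a at 0.58 (limma adjusted p = 0.529) and Zbtb46 at -0.06. The part of neutrophil number was not tested. None of the markers of natural killer cells (7), B cells (5) and T cells (7) was among the measured symbols. Of the 15 measured responders to interferon-gamma, which raises Fcgr1, 7 had a negative value, and the median was 0.06. Of the 6 measured microglial signature genes, which Fcrls is usually grouped with, 5 had a negative value, and the median was -0.12. In KO and WT hearts, Cx3cr1 was the only macrophage and the only microglial gene listed, at 1.14 (log2 fold change, standard error 0.38), and Gbp3 and Psmb9 were the responders to interferon-gamma listed, at 0.52 and 0.75. Of the other cell type lists, Col1a1 was listed at -0.34 for fibroblasts, and Actc1 at -0.31, Ttn at -0.24, Myh6 at -0.20 and Pln at 0.15 for cardiomyocytes. The sums of the lists could not be taken from that table, which holds only part of each list.

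**Figure D5:**
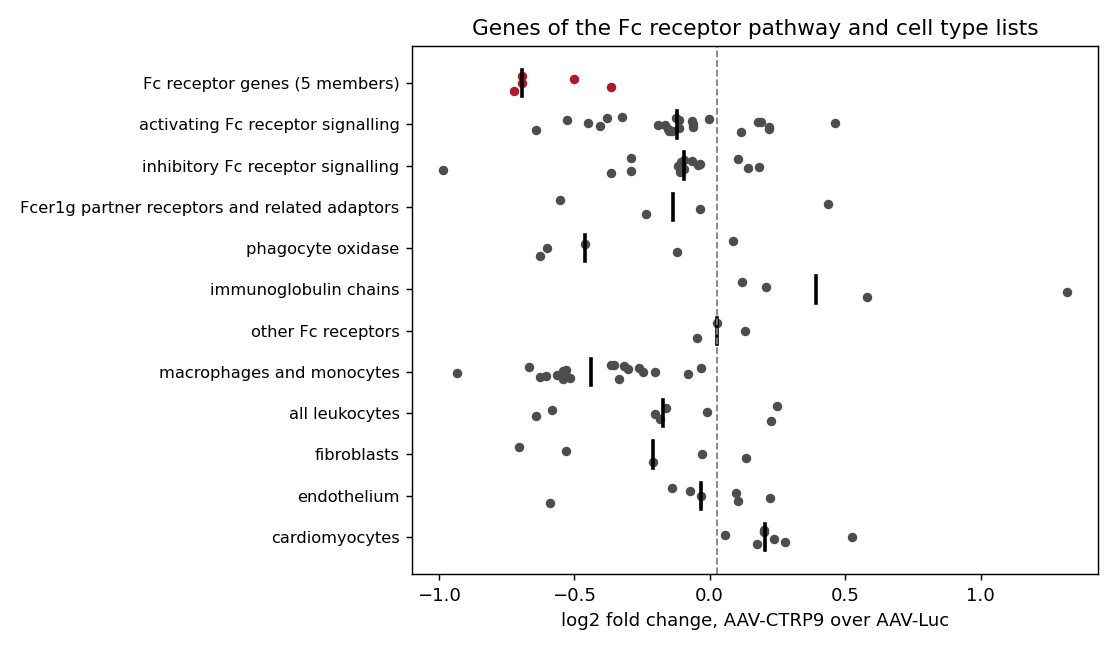
Log2 fold change for AAV-CTRP9 over AAV-Luc (x axis) of each measured gene of the Fc receptor pathway and cell type lists, with 1 point per gene, a black bar at the median of each list and a dashed line at the median of all symbols (0.03). The 5 Fc receptor genes have a median of -0.69, the macrophage and monocyte genes -0.44, and the signalling lists -0.12 and -0.10.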

How the data were processed

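Single-end reads of 50 bases were trimmed with FastqCleaner, aligned to mm10 with bowtie2 and annotated with biomaRt by the authors. The paper names a strand-specific mRNA library preparation. Counting software, strand setting of the counting and handling of reads with several matches: not given in the sources used here. The AAV values, deposited by the authors, are log2 CPM of Ensembl transcripts with a prior count, from which whole reads were recovered (100% of values within 1e-06, prior count 1). For KO and WT they deposited raw read counts per RefSeq transcript, only for rows with an unadjusted p under 0.05. The deposited p-value column was read only to find that threshold, the deposited signal column (the mean normalized count) gave size factors, and the deposited RPKM sums gave library totals. The authors' fold changes and test columns were not used, nor were 14 further per-sample columns. The KO and WT columns are not tied to single animals and are called A to D and A to C.

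Each symbol was represented by its transcript of highest mean level. AAV-CTRP9 was compared with AAV-Luc by limma 3.58.1 with an intensity trend over 13219 symbols, and KO with WT by edgeR 4.0.16 (quasi-likelihood test, 1230 symbols). The standard errors for KO over WT were worked back from the edgeR log2 fold change and its test statistic. P-values were adjusted after Benjamini and Hochberg, with 0.05 as the threshold. R 4.3.3 was used. The members and the gene lists were chosen with earlier results of these data known. Other genes were named by a rule: the 5 nearest profiles to Fcgr1 and Fcrls, the 3 nearest to the other members, and of each list the genes past the threshold or listed for KO and WT, otherwise the 2 with the smallest p. Genes outside the rule are said to have been picked after their values were seen. Alternatives were edgeR and DESeq2 1.42.0 on recovered reads, other scalings, a prior count of 0.1, a minimum mean of 1 CPM or 10 reads, limma without the trend, summed transcripts, removal of GC content and length trends, and each heart left out. Summed transcripts can count a read more than once. The code was tested on simulated data. Hearts are separate mice. Figures were made with matplotlib 3.10.9.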

Additional observations from a re-analysis of the deposited data

How the results depend on the processing

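The log2 fold changes of the 5 members in the AAV experiment and of Fcgr1 and Fcrls in the KO experiment kept their direction under each alternative. Under the settings that leave out no heart they were -0.74 to -0.66 for Fcgr1, -0.74 to -0.69 for Fcgr3, -0.41 to -0.35 for Fcer1g, -0.55 to -0.50 for Fcgr2b and -0.77 to -0.72 for Fcrls in the AAV experiment, and 1.16 to 1.28 for Fcgr1 and 0.90 to 1.02 for Fcrls in KO over WT. The order of levels per kilobase with the longest transcript of each gene is no check. The transcript used was already the longest for every member but Fcer1g, where the lengths were 674 and 683 bases. Counts of calls depended strongly on the settings. The 2 AAV symbols past an adjusted p of 0.05 became 61 with DESeq2, 1 with totals of the recovered reads, 0 in limma without the trend, 0 with summed transcripts and 6 with GC content and length trends removed. With 1 heart left out they were 0 to 150, and the 150 were without Luc_614. The 1 gene of the fixed lists past the threshold became 10 with DESeq2, 0 in limma without the trend, 0 with summed transcripts, 2 with GC content and length trends removed, and 0 to 10 with 1 heart left out, the 10 without Luc_614. For the Fc receptor pathway lists alone, the count of 0 became 2 with DESeq2 and was 0 to 1 with 1 heart left out, the 1 without Luc_614. Of the 1230 symbols listed for KO and WT, the 1150 past the threshold became 632 with DESeq2 and 652 with TMM factors of the listed symbols, and 338 to 933 with 1 heart left out. The cause of these shifts was not tested. No paired analysis was possible because the labels give no replicate number that links hearts of different groups. Fcgr1 was limited by depth, with 5 to 45 reads per heart. With 3 and 4 hearts per group, a p over the threshold does not show that a gene did not differ.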
